A study of Mus musculus with 21 samples.

Results

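The 7 genes described here are grouped as genes of the primary, or azurophil, granules of neutrophils, although Serpinb1a does not encode a granule content. They are called primary granule genes as a group name. They were taken by name from the array, as Mpo, Elane, Prtn3, Ctsg, Ms4a3, Ctsc and Serpinb1a, out of 18217 genes whose probes could be given a symbol. Each was measured by 1 probe, so no choice between probes was needed, and all 7 were among the 29527 probes tested.

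Primary granules are the first granules that a developing neutrophil fills, at the promyelocyte stage, and they carry the enzymes with which the mature cell kills and digests microbes. The messenger RNAs for their contents are made early, in granulocyte-monocyte progenitors and promyelocytes, and fade before the secondary and tertiary granules are filled. Mpo encodes myeloperoxidase, the heme enzyme that makes hypochlorous acid. Elane, Prtn3 and Ctsg encode the serine proteases neutrophil elastase, proteinase 3 and cathepsin G. Ctsc encodes the dipeptidyl peptidase that trims these proteases into their active form, Serpinb1a a cytosolic serpin that inhibits them, and Ms4a3 a membrane protein of the MS4A family found on granulocyte progenitors.

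Levels were measured in 7 fractions of C57BL/6 mouse bone marrow, each sorted by surface markers and run on 3 of the 21 arrays. No genotype, treatment, age or sex divided the fractions. KLS was lin- ckit+ sca1+, and the labels give the same 3 markers to PreMegE (CD150+ CD105- and negative for the Fc gamma receptors), to CFUe and PreGM (both CD150- CD105- and receptor negative), and to GMP (CD150- and receptor positive). The later fractions were Ter119 (CD71+ Ter119+) and Mac1Gr1 (Mac1+ Gr1+). CFUe and PreGM therefore carry the same markers in the labels, and every progenitor is written there as sca1+. KLS is the multipotent start, from which PreMegE, CFUe and Ter119 follow on the erythroid side, and on the myeloid side PreGM, GMP and then Mac1Gr1. The labels do not say whether replicates came from separate mice or sorts, so the p values measure the spread between these arrays, which may be technical.

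A level is the intensity after background correction, on the log2 scale and relative to the 75th percentile of its own array, so that 0 stands for that percentile. Between 56.2% and 77.4% of probes per array were well above background. The genes for sorting antigens moved in both directions from PreGM to GMP. The Fc gamma receptor genes Fcgr3 and Fcgr2b rose by 3.61 and 1.75, as did Ly6a, which encodes Sca1, by 2.41. Eng (CD105) was called lower. Slamf1 (CD150) was also called lower, but no array of either fraction was well above background for it. Itgam, which encodes Mac1, had a mean level of 3.02 in Ter119 and 5.16 in Mac1Gr1, and Ly6a one of -3.14 in PreMegE and -5.81 in CFUe, although the labels call both fractions sca1+. The Ter119 fraction held erythroid and granulocytic transcripts side by side. Its 10 erythroid markers summed to between 11.83 and 12.16 on the log2 scale (Mac1Gr1: 3.31 to 3.74), yet its 16 secondary and tertiary granule genes summed to between 12.36 and 12.67, against 12.69 to 12.88 in Mac1Gr1 and 2.0 to 4.49 in CFUe, with every one of them well above background on each of the 3 Ter119 arrays. KLS held macrophage transcripts: its 7 macrophage markers, all well above background there, summed to between 4.63 and 6.11, against -1.43 to -0.12 in PreMegE, -0.35 to -0.024 in PreGM and 2.88 to 3.10 in GMP. All 7 were highest on KLS array 1 and lowest on KLS array 3 of the KLS arrays.

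Array 3 of CFUe stood apart from the other CFUe arrays. All 7 primary granule genes were higher on it than on both others, by a median of 2.49 (range 1.06 to 3.37), where 41.0% of all probes were higher than both. On the same array 14 of 16 secondary and tertiary granule genes lay above both other arrays. So did 6 of 7 monocyte markers and 6 of 6 stem cell markers. The 6 cell cycle genes summed to 6.25 on it (log2 scale), against 6.84 and 6.88 on CFUe arrays 1 and 2. Array 3 of PreGM also held more of all 7 genes than its partners, by a median of 0.37 (range 0.14 to 1.42), and more of 12 of 16 secondary and tertiary granule genes, where 39.4% of all probes were higher than on both others. Whether other cells in these sorts account for the higher values was not tested. The fit of all fractions shares a single spread per gene. The CFUe spread therefore enters every p value and interval of that fit, also where CFUe is not compared. For Mpo the standard deviation was 1.95 in CFUe, 0.09 in PreGM and 0.19 in GMP, and the residual one of the fit was 0.79.

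**Figure D1:**
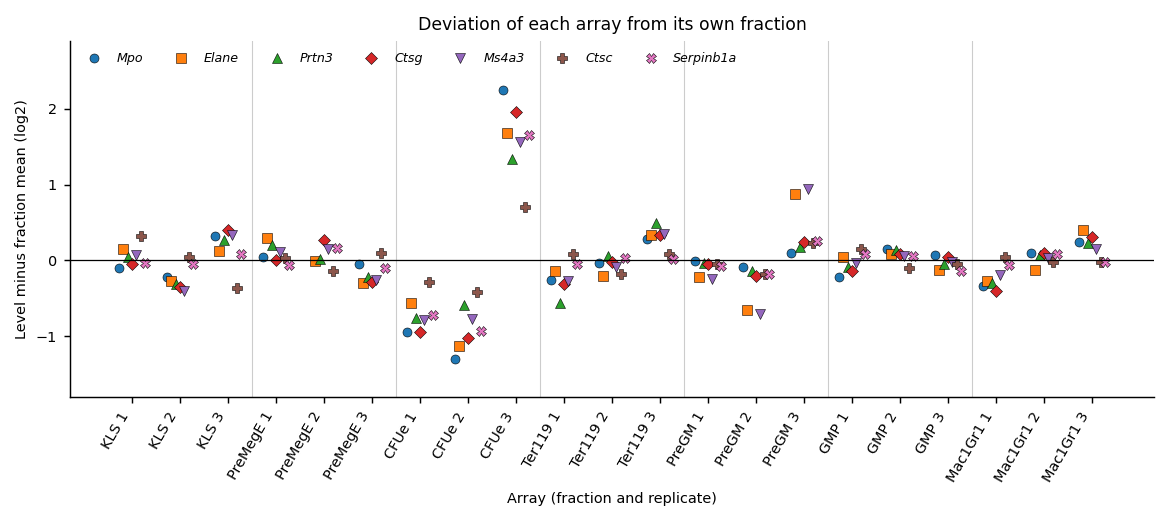
Each member's level on each of the 21 arrays minus the mean of that gene in its own fraction (log2 scale, y axis); arrays are ordered by fraction on the x axis and each symbol is a gene. On CFUe array 3 all 7 genes lie above the fraction mean and on CFUe arrays 1 and 2 all lie below it, while Elane and Ms4a3 are the widest spread genes in PreGM.

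The promoters of 4 members are shown, picked by their values in these data. Elane and Ms4a3 had the largest changes of the 7 genes at the step to GMP. Mpo and Ctsg were already near their highest level in PreGM. None of the 4 passed the limma test of the step to GMP against the step to PreGM (adjusted p 0.227 to 0.689, all fractions fitted). Each promoter is the stretch of 250 bases before the RefSeq start of the gene, in build GRCm38.p6, printed 5′ to 3′ on the gene's own strand. The positions are chr10:79886062-79886311 (plus strand) for Elane, chr19:11640852-11641101 (minus) for Ms4a3, chr11:87793534-87793783 (plus) for Mpo and chr14:56102575-56102824 (minus) for Ctsg. Capitals mark the letters GGAAGT, the core of sites bound by PU.1 and other ETS factors, and, where present, TTNNGNAA (a C/EBP half-site pair) and TGTGGT (RUNX), each searched on both strands.
Elane: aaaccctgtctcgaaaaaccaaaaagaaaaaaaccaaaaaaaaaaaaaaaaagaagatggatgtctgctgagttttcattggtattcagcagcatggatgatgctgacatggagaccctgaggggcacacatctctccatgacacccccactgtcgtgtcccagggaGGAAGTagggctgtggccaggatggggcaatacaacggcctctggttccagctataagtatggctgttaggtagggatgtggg
Ms4a3: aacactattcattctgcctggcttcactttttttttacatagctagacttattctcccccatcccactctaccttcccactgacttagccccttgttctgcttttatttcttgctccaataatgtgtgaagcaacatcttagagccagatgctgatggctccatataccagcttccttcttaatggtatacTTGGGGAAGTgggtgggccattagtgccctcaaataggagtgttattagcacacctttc
Mpo: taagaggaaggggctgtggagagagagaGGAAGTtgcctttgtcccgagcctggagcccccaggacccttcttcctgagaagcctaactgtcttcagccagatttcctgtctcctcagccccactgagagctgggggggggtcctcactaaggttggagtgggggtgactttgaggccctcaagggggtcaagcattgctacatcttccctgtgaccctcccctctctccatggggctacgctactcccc
Ctsg: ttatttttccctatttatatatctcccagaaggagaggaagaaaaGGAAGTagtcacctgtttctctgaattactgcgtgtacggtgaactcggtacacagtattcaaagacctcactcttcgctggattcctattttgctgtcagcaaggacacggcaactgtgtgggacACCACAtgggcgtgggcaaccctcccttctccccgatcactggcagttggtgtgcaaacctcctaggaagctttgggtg

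GGAAGT or its reverse, ACTTCC, was present in 6 of the 6 member promoters that the table holds, against 19.7% of all 32851 promoters of the same length. It began 83 bases before the start of Elane, 55 before Ms4a3, 222 before Mpo, 205 before Ctsg and 93 before Prtn3, and in Ctsc it was found on the other strand from 151 to 146 bases before the start. TTNNGNAA was found in 1 of 6 (Ms4a3, where it overlaps GGAAGT) and in 36.8% of all promoters. TGTGGT was found in 1 of 6 (Ctsg, as ACCACA) against 14.0%, and the GATA letters AGATAA (reverse TTATCT) in 0 of 6 and in 3281 of all promoters. AACNG, the core letters bound by MYB, were found in 5 of 6 against 74.2% and are left in lower case. These are matches of letters within this window only. Serpinb1a has no promoter in the table.

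Mpo was highest across PreGM and GMP. Its level was 7.12, 7.0 and 7.54 on the 3 KLS arrays, 9.27, 9.19 and 9.37 in PreGM, 8.98, 9.34 and 9.26 in GMP, and 4.88, 5.32 and 5.47 in Mac1Gr1. On the erythroid side it was 5.89 and 5.80 in PreMegE, where the spot of array 2 was left out as an outlier and the fit uses 2 arrays, then 1.09, 0.73 and 4.28 in CFUe and 6.21, 6.43 and 6.75 in Ter119. PreGM and GMP overlapped at the top, and the CFUe arrays lay below all others. In order from PreGM, the neighbours GMP and KLS differed (limma adjusted p = 0.0131), as did Mac1Gr1 and CFUe (1.48e-04), while PreGM and GMP (0.948) and the neighbours from KLS through Ter119, PreMegE and Mac1Gr1 (0.268 to 0.416) did not pass the test. On the PreGM and GMP arrays the Mpo probe ranked between place 2 and place 7 of all probes, at intensities of 398399 to 554846 where the brightest probe of an array reached 573712 to 641404. No spot was saturated, but whether the scale is compressed near this end was not tested.

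Elane was highest in GMP. It was at -0.30, -0.73 and -0.33 in KLS, 2.21, 1.77 and 3.32 in PreGM, 6.58, 6.63 and 6.41 in GMP, and -0.69, -0.54 and -0.02 in Mac1Gr1. The GMP arrays stood clear of every other fraction, and Mac1Gr1 overlapped KLS (adjusted p = 0.948). On the erythroid side Elane was 0.43, 0.12 and -0.16 in PreMegE, -5.13, -5.70 and -2.88 in CFUe, and 1.67, 1.61 and 2.15 in Ter119. Of the CFUe arrays, only array 3 was well above background, and the Ter119 arrays overlapped those of PreGM (adjusted p = 0.288). Its lowest fraction mean, that of CFUe, therefore rests on 2 arrays at background.

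Prtn3, which lies beside Elane on chromosome 10, rose at both steps to GMP. It was 2.84, 2.49 and 3.08 in KLS, 5.15, 5.05 and 5.37 in PreGM, 7.08, 7.30 and 7.12 in GMP, and 0.09, 0.47 and 0.62 in Mac1Gr1. None of these 4 fractions overlapped, and the neighbours GMP and PreGM (adjusted p = 0.00138) and PreGM and KLS (3.71e-04) differed. In PreMegE it was 1.48, 1.3 and 1.05, in CFUe -2.78, -2.60 and -0.68, and in Ter119 1.44, 2.06 and 2.49. KLS, Ter119, PreMegE and Mac1Gr1 followed in that order with neighbours that missed the threshold (0.0536 to 0.114), and CFUe was lowest (2.95e-05 against Mac1Gr1).

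Ctsg, like Mpo, rose from KLS to PreGM. Its level was 5.20, 4.91 and 5.65 in KLS, 7.90, 7.75 and 8.20 in PreGM, 8.64, 8.87 and 8.83 in GMP, and 2.79, 3.30 and 3.51 in Mac1Gr1. PreGM lay above KLS on every array (adjusted p = 0.00149), and GMP lay above PreGM on every array without passing the test (0.288). PreMegE was at 4.14, 4.41 and 3.85, CFUe at -0.99, -1.07 and 1.92, and Ter119 at 4.08, 4.38 and 4.73, so that PreMegE and Ter119 overlapped. Over the 20 arrays with both values, Ctsg and Mpo had a Pearson correlation of 0.987.

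Ms4a3 ran closest to Elane, with a correlation of 0.991 over 21 arrays. It was 1.23, 0.75 and 1.5 in KLS, 3.57, 3.10 and 4.76 in PreGM, 7.10, 7.20 and 7.12 in GMP, and 1.63, 1.87 and 1.99 in Mac1Gr1. In PreMegE it stood at 2.25, 2.29 and 1.88, in CFUe at -3.61, -3.61 and -1.27, and in Ter119 at 2.67, 2.85 and 3.28. GMP was apart from all others (adjusted p = 7.84e-05 against PreGM), PreGM overlapped Ter119 (0.117), and the rest of the order through PreMegE, Mac1Gr1 and KLS had no neighbours that passed the test (0.152 to 0.571). These correlations describe arrays that share fractions and libraries; the lowest among the 7 genes was 0.644, between Prtn3 and Serpinb1a.

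Ctsc moved least, with a span of 2.84. It was 1.21, 0.93 and 0.52 in KLS, 0.32, 0.19 and 0.59 in PreGM, 1.78, 1.53 and 1.58 in GMP, and 0.68, 0.62 and 0.62 in Mac1Gr1. PreMegE was at -0.27, -0.44 and -0.20, CFUe at -1.50, -1.63 and -0.51, and Ter119 at 1.19, 0.93 and 1.19. GMP was highest, but the gap to Ter119, the next in order, was 0.52 (adjusted p = 0.0488), and PreGM overlapped KLS.

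Serpinb1a was near its highest level in both GMP and Mac1Gr1. It was 4.5, 4.49 and 4.61 in KLS, 4.75, 4.65 and 5.08 in PreGM, 5.98, 5.95 and 5.75 in GMP, and 6.52, 6.66 and 6.55 in Mac1Gr1. All 3 Mac1Gr1 arrays lay above all GMP arrays, although the gap of 0.68 did not pass the test (adjusted p = 0.155) and turned to -1.35 with spike-in scaling (adjusted p = 0.00323). On the erythroid side it was 3.06, 3.28 and 3.01 in PreMegE, -3.31, -3.52 and -0.93 in CFUe, and 5.24, 5.33 and 5.32 in Ter119. Serpinb1b and Serpinb1c, its close relatives, could share signal with it, which was not tested. The test of Mac1Gr1 against GMP used the spread pooled over all fractions. For Serpinb1a the standard deviation was 1.44 in CFUe, 0.13 in GMP and 0.08 in Mac1Gr1, and the residual one of the fit was 0.56.

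**Figure D2:**
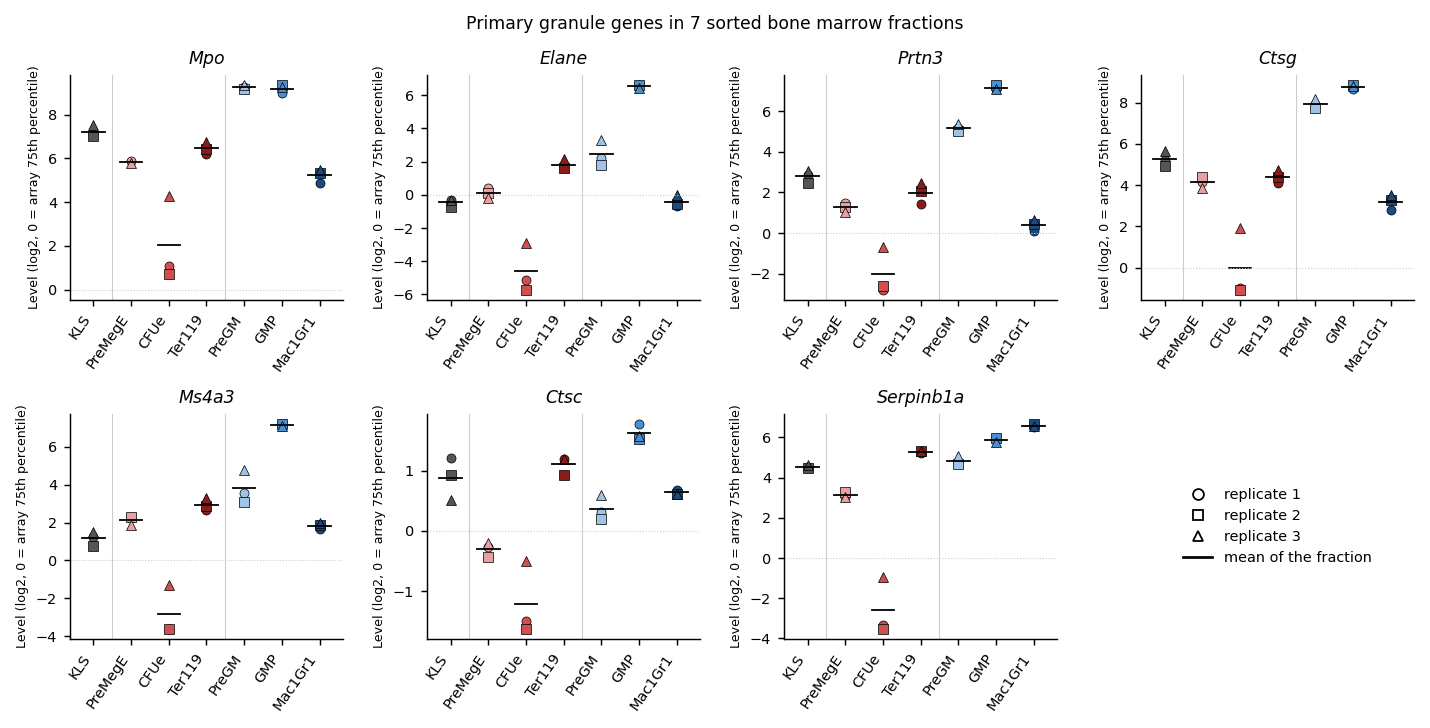
Level of each gene (log2 scale, 0 is the array's 75th percentile; y axes differ between panels) in 7 fractions, with KLS first, the erythroid side in reds and the myeloid side in blues; symbols are the 3 arrays and the line is their mean. GMP is the highest fraction for Elane, Prtn3, Ctsg, Ms4a3 and Ctsc, PreGM and GMP overlap for Mpo, Mac1Gr1 is highest for Serpinb1a, and CFUe is lowest for all 7.

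At the first myeloid step, from KLS to PreGM, 5 of 7 genes rose, against 2.11% of all probes called higher and 8.63% called in either direction. A gene was called at an adjusted p under 0.05 from limma, with Benjamini-Hochberg adjustment over all probes tested, and a change of at least 2-fold. Elane rose by 2.89 on the log2 scale (standard error 0.52, adjusted p = 6.75e-04), Ctsg by 2.69 (0.53, adjusted p = 0.00149), Ms4a3 by 2.65 (0.49, adjusted p = 8.71e-04), Prtn3 by 2.39 (0.40, adjusted p = 3.71e-04) and Mpo by 2.05 (0.60, adjusted p = 0.02). Ctsc (-0.52, adjusted p = 0.115) and Serpinb1a (0.29, 0.679) did not pass the test. The call of Mpo was lost when slides were blocked in the fit (2.86, adjusted p = 0.0849) and without KLS array 1 (0.057), KLS array 2 (0.0688) or PreGM array 1 (0.0557). As in any sorted bulk sample, more cells of a type and more RNA per cell cannot be told apart here.

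From PreGM to GMP, 4 of 7 genes rose, where 4.01% of probes were called higher and 6.36% lower. Elane rose 17.2-fold (log2 4.11, 95% interval 3.01 to 5.20, adjusted p = 1.60e-05), Ms4a3 10.1-fold (3.33, 2.29 to 4.37, 7.84e-05), Prtn3 3.93-fold (1.98, 1.13 to 2.82, 0.00138) and Ctsc 2.40-fold (1.26, 0.77 to 1.75, 6.07e-04). Mpo was at -0.08 with an interval from -1.36 to 1.20, and its sign turned under 4 other settings. Ctsg was at 0.83 (interval -0.30 to 1.96) and Serpinb1a at 1.06 (0.16 to 1.97, adjusted p = 0.0785). In a fit of PreGM and GMP alone, 5 of 7 genes were called higher, where 9.52% of all probes were called in either direction. On the slide that held array 1 of both fractions, the differences were 4.37 for Elane, 3.53 for Ms4a3, 1.92 for Prtn3, 1.46 for Ctsc, 1.23 for Serpinb1a, 0.74 for Ctsg and -0.29 for Mpo. With spike-in scaling, which moved the median of all probes from -0.02 to 0.99 at this step, 6 of 7 genes were called, as were 49.2% of all probes.

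The size of the step to GMP was then set against that of the step to PreGM. Only Ctsc passed the test of the difference (1.78, standard error 0.40, adjusted p = 0.00880), where 4.21% of probes were called in that direction, and it did not pass without PreGM array 2 (1.60, adjusted p = 0.0634) or when slides were blocked (1.64, 0.0987). The 7 macrophage markers went the same way, with 7 of 7 lower from KLS to PreGM (median -6.59) and 7 of 7 called in this difference (median 7.38). On KLS arrays 1, 2 and 3 Ctsc lay 0.32, 0.04 and -0.36 from its mean, in the order of the macrophage markers, and without KLS array 1 its difference was 1.62 (adjusted p = 0.021). The part of macrophage transcripts in the value was not tested. The difference was -2.13 for Mpo (95% interval -4.35 to 0.09, adjusted p = 0.227) and -1.86 for Ctsg (-3.81 to 0.09, 0.231), and 1.22 for Elane (-0.68 to 3.11, 0.447). In a fit of the 3 fractions alone, Mpo (adjusted p = 0.0038) and Ctsg (0.0161) were called in the other direction. That fit called 7.54% of all probes in either direction. The fit of all fractions called 3.25% in the direction of Mpo and Ctsg.

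From GMP to Mac1Gr1, 5 of 7 genes fell, where 27.6% of probes were called lower, 29.1% higher and 56.7% in either direction. Elane fell by 6.96 (standard error 0.52, adjusted p = 1.66e-09), to 0.805% of its GMP level. Prtn3 fell by 6.77 (0.40, adjusted p = 7.45e-11), to 0.914%. The changes of Ctsg (-5.58, adjusted p = 4.46e-08), Ms4a3 (-5.31, adjusted p = 2.82e-08) and Mpo (-3.97, adjusted p = 1.71e-05) were smaller in size, and Mpo kept 6.37% of its GMP level. The median change of the 7 genes was -5.31, against 0.17 for all probes tested. Every one of these 5 genes was still well above background on all Mac1Gr1 arrays. At the same step 7 of 7 B cell markers (median 2.99) and 6 of 7 macrophage markers (median 2.83) were called higher, and 6 of 6 cell cycle genes lower (median -2.19). Their part in the changes was not tested.

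Ctsc and Serpinb1a were not called at this step. Ctsc changed by -0.99 (adjusted p = 9.24e-04), just under the 2-fold minimum, and was called with slides blocked (-1.38), with spike-in scaling (-3.02), and without GMP array 2, GMP array 3 or Mac1Gr1 array 1 (-1.04 to -1.01). Serpinb1a was at 0.68 (95% interval -0.22 to 1.59) and turned to -1.35 with spike-in scaling (adjusted p = 0.00323), under which the median of all probes was -1.86. No slide held both GMP and Mac1Gr1.

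**Figure D3:**
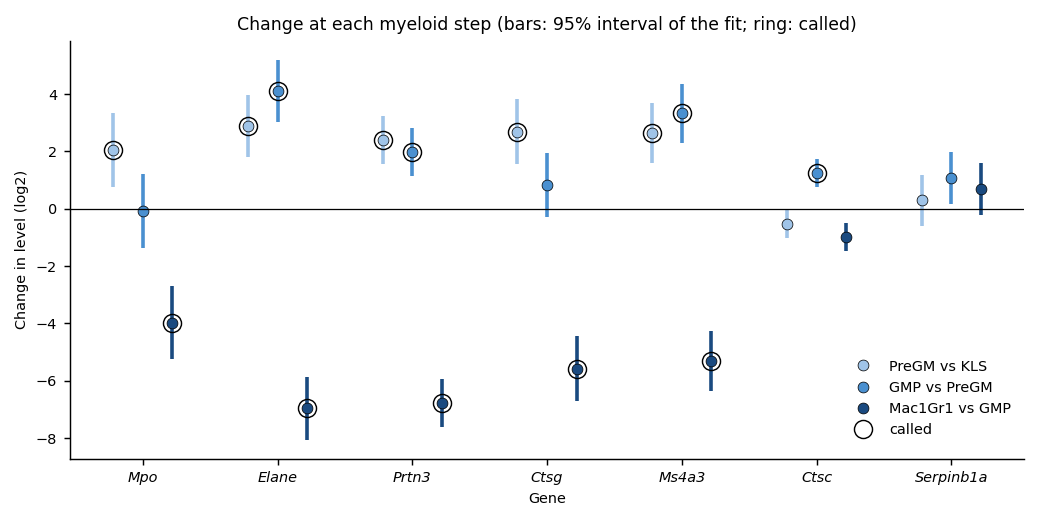
Change in level (log2 scale, y axis) of each gene at 3 myeloid steps, with the 95% interval of the fit as bars and a ring around called changes. Mpo and Ctsg are called at the first and the last step, Elane, Prtn3 and Ms4a3 at all 3 steps, Ctsc at the step to GMP (1.26), and Serpinb1a at none.

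Over the whole way from KLS to GMP, 6 of 7 genes were called, all higher, where 21.7% of probes were called in either direction. Elane was up by 6.99 and Ms4a3 by 5.98, followed by Prtn3 (4.36), Ctsg (3.52), Mpo (1.97) and Serpinb1a (1.36), with adjusted p between 1.19e-08 and 0.0149. Ctsc was at 0.75 (adjusted p = 0.0135), below the 2-fold minimum, and was called with slides blocked (1.06, 0.0137). Serpinb1a lost its call with quantile scaling (0.87, adjusted p = 0.0778).

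On the erythroid side the genes went down before they came back. PreMegE was lower than KLS for 3 of 7 genes, Prtn3 (-1.52, adjusted p = 0.00851), Serpinb1a (-1.42, 0.0201) and Ctsc (-1.19, 8.42e-04), where 8.86% of probes were called lower. In the same comparison 7 of 7 macrophage markers were lower (median -6.31), and their part was not tested. Without KLS array 1, which held the most of them, Ctsc was at -1.03 (adjusted p = 0.00719). With slides blocked the calls of Prtn3 (-0.89), Serpinb1a (-0.50) and Ctsc (-0.89) were lost, and Serpinb1a was not called without KLS array 1 or PreMegE array 1 or 3 (adjusted p 0.0505 to 0.0562). Elane (0.58, adjusted p = 0.444) and Ms4a3 (0.98, 0.158) had the opposite sign without passing the test. Compared with PreGM, its myeloid counterpart, PreMegE was lower for 6 of 7 genes, from -1.67 (Ms4a3) to -3.91 (Prtn3), where 6.23% of probes were called lower. Elane (adjusted p = 0.0617), Ms4a3 (0.118) and Serpinb1a (0.052) lost their calls with slides blocked, as did Ms4a3 without PreGM array 3 (0.0904) or PreMegE array 3 (0.0621).

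From PreMegE to CFUe, 6 of 7 genes fell, where 14.7% of probes were called lower. Serpinb1a fell by 5.70 (standard error 0.43, adjusted p = 1.19e-08), followed by Ms4a3 (-4.97), Elane (-4.70), Ctsg (-4.18), Mpo (-3.82) and Prtn3 (-3.30). Ctsc changed by -0.91 (adjusted p = 0.00330). Without CFUe array 3 all 7 were called, where 26.2% of all probes were called in either direction. The changes ran from -1.26 (Ctsc) to -6.53 (Serpinb1a), with -4.94 for Mpo. Against GMP, CFUe was lower for 7 of 7 genes, from -2.84 (Ctsc) to -11.11 (Elane), where 14.2% of probes were called lower; without CFUe array 3 these were -3.20 and -11.96. Elane was not well above background on CFUe arrays 1 and 2, so its values here are measured differences from arrays at background.

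From CFUe to Ter119, 7 of 7 genes rose, where 29.2% of probes were called higher. Serpinb1a rose by 7.88 (standard error 0.43, adjusted p = 2.65e-11) and Elane by 6.38 (0.52, 5.12e-09), followed by Ms4a3 (5.77), Ctsg (4.44), Mpo (4.43), Prtn3 (4.02) and Ctsc (2.32). With spike-in scaling Ctsc was at 0.94, under the 2-fold minimum. On the slide that held CFUe array 1 and Ter119 array 3, the differences ran from 2.70 (Ctsc) to 8.63 (Serpinb1a). Without CFUe array 3 the changes were 8.71 for Serpinb1a, 7.23 for Elane and 5.56 for Mpo. Elane was not well above background on CFUe arrays 1 and 2. Its rise of 6.38 therefore rests partly on CFUe arrays at background, and the 7.23 wholly. All 16 secondary and tertiary granule genes, 7 of 7 monocyte markers, 7 of 7 B cell markers and 7 of 7 eosinophil, mast cell and basophil markers were also called higher at this step. The part of such cells in the Ter119 values was not tested.

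Between Ter119 and Mac1Gr1, 3 of 7 genes were called, a share near that of all probes. Elane was higher in Ter119 by 2.23 (standard error 0.52, adjusted p = 0.00116) and Prtn3 by 1.60 (0.40, adjusted p = 0.002), and Serpinb1a was lower (-1.28, standard error 0.43, adjusted p = 0.0144), where 41.9% of probes were called in either direction and 19.9% lower. Serpinb1a lost its call with slides blocked (-0.41, adjusted p = 0.571) and Prtn3 with spike-in scaling (0.87, 0.0532). Mpo (1.24, adjusted p = 0.0804), Ctsg (1.20, 0.0574), Ms4a3 (1.11, 0.0565) and Ctsc (0.47, 0.0858) had higher means in Ter119 without passing the test. Of the 16 secondary and tertiary granule genes, 0 were called higher and 8 lower in Ter119, with a median of -1.63 where that of the 7 primary granule genes was 1.20 and that of all probes 0.06. Markers of other cells moved too: 7 of 7 B cell markers (median 1.84), 3 of 4 T cell markers, 4 of 7 eosinophil, mast cell and basophil markers and 6 of 6 cell cycle genes were called higher in Ter119, and 6 of 7 macrophage markers lower. Their part in these differences was not tested. Quantile scaling gave 5 higher and 1 lower of the 7 genes, and the authors' series table gave 5 higher and 0 lower. The shares of all probes called in either direction there were 41.6% and 42.2%. A fit of Ter119 and Mac1Gr1 alone gave 5 higher and 1 lower of the 7 genes, where 42.8% of all probes were called.

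**Figure D4:**
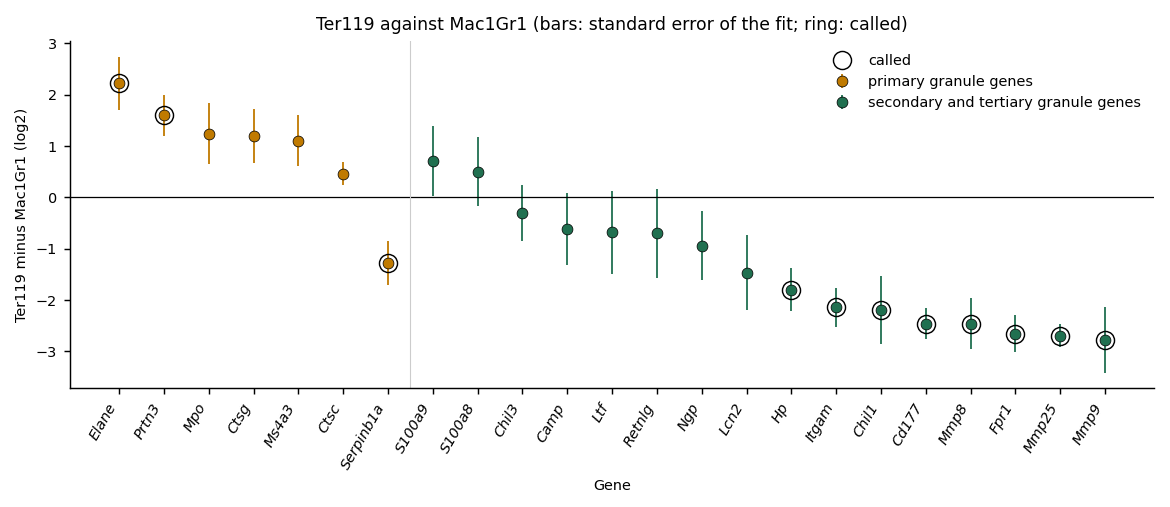
Ter119 minus Mac1Gr1 (log2 scale, y axis) for the 7 primary granule genes and 16 secondary and tertiary granule genes, with the standard error of the fit as bars and a ring around called differences. Of the primary granule genes 6 lie above 0 and Serpinb1a lies below it, and of the others S100a8 (0.50) and S100a9 (0.71) lie above 0, neither called.

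The same step was then compared between the lineages. The step from PreGM to GMP minus the step from PreMegE to CFUe was positive for 7 of 7 genes, from 2.17 (Ctsc, adjusted p = 6.60e-05) to 8.81 (Elane, 1.14e-07), where 11.8% of probes were called in that direction. The step from GMP to Mac1Gr1 minus that from CFUe to Ter119 was negative for 7 of 7 genes, from -3.31 (Ctsc, 2.58e-07) to -13.34 (Elane, 2.62e-10), where 20.9% of probes were called in that direction. For the 5 genes called lower in Mac1Gr1, the second difference rests on both the myeloid fall and the Ter119 rise given above. The myeloid change of Ctsc (-0.99) was not called. Serpinb1a did not fall from GMP to Mac1Gr1 (0.68), so its difference rests on the Ter119 rise (7.88).

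The later granule genes are set beside these. From GMP to Mac1Gr1 all 16 secondary and tertiary granule genes rose, where 29.1% of all probes were called higher. Their median change was 10.08 (9.32 with Mmp25, not above background in GMP, at its bound). On GMP arrays 1, 2 and 3, 12, 12 and 15 of the 16 were well above background, so some changes rest partly on background. Among them were Ltf, encoding lactoferrin (13.52), Mmp8, the neutrophil collagenase (11.64), and Chil1, a chitinase-like protein (11.61). From PreGM to GMP 7 of the 16 listed genes had already risen, where 4.01% of all probes were called higher. The largest of these rises were in S100a8 (5.97) and S100a9 (4.53), the subunits of calprotectin, a mainly cytosolic protein. These 2 genes therefore do not stand for granule contents. The summed level of the 7 primary granule genes was 10.39 to 10.63 in GMP and 7.07 to 7.31 in Mac1Gr1. That of the 16 later granule genes was 8.24 to 8.57 and 12.69 to 12.88. The brightest genes weigh most in such sums of linear levels. Among the 7 these were Mpo (mean 9.19) and Ctsg (8.78) in GMP and Serpinb1a (6.58), which did not fall, in Mac1Gr1. The median change of the 7 genes was -5.31.

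**Figure D5:**
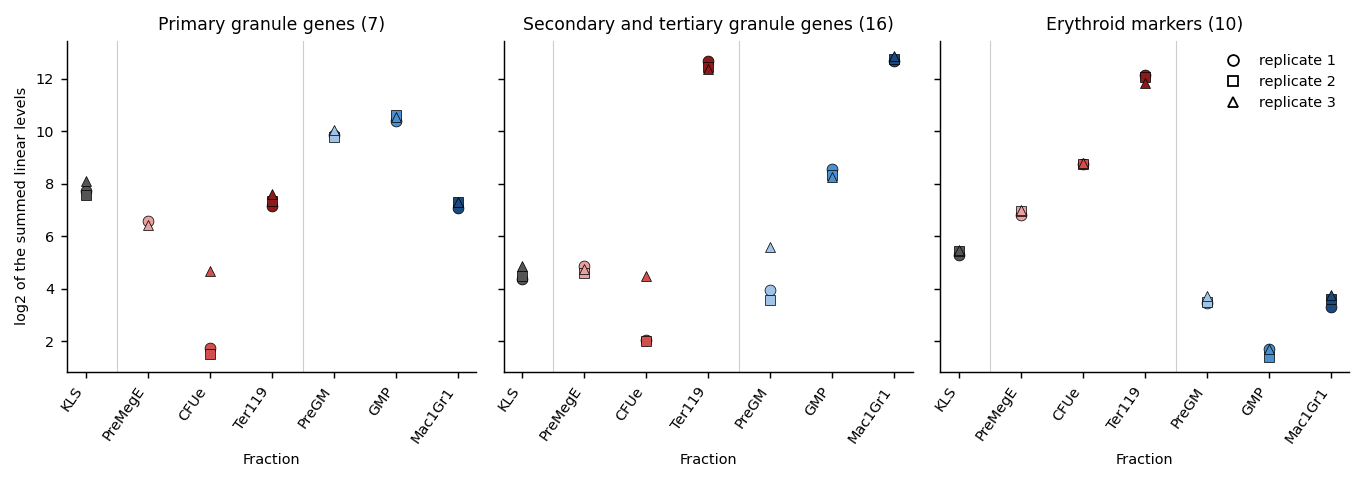
Summed level (log2 of the sum of linear levels, y axis) of the 7 primary granule genes, 16 secondary and tertiary granule genes and 10 erythroid markers on each array of 7 fractions; symbols are replicates, and PreMegE array 2 is absent from the first panel because Mpo has no value there. The primary genes are highest in GMP (10.39 to 10.63), the later granule genes in Mac1Gr1 with Ter119 close below, and the erythroid markers in Ter119. The brightest genes weigh most in each sum, and for the primary genes in Mac1Gr1 the brightest is Serpinb1a.

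Other contents of primary granules and lysosomes were a list of 10 genes of which 9 were tested. From PreGM to GMP, where 4.01% of all probes rose and 6.36% fell, 2 rose and 0 fell: Prss57, a serine protease of the same granules (2.38, adjusted p = 2.08e-04), and Cd63, the granule membrane tetraspanin (1.89). From GMP to Mac1Gr1, 3 rose and 3 fell, shares near the 29.1% and 27.6% of all probes. Prss57 (-3.59), Gaa, the lysosomal acid glucosidase (-3.57), and Gusb, the glucuronidase (-1.81), fell, while the lysozymes Lyz2 (6.44) and Lyz1 (5.71) and the mannosidase Man2b1 (1.54) rose. Cd63 was at -0.27 at that step (adjusted p = 0.486). Bpi was not well above background on all arrays of any fraction and was not tested.

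Of 10 other protease inhibitors, 7 rose and 1 fell from GMP to Mac1Gr1, where 29.1% of all probes rose and 27.6% fell. Cst7, which encodes cystatin F, an inhibitor of cathepsin C, was the gene that fell, by 6.57 (adjusted p = 9.6e-10), after a rise of 1.47 from PreGM to GMP. Slpi, the secretory inhibitor of elastase and cathepsin G, rose at both steps, by 1.91 and 2.71. Serpinb6a (2.64), Serpinb1b (1.71) and Serpinb1c (1.12) rose to Mac1Gr1, as did the stefins Stfa1 (12.57), Stfa3 (8.78) and Stfa2. Stfa2 was at least 2002-fold higher because no GMP array was well above background for it. Stfa1 had a GMP mean of -6.54 and was not well above background on every GMP array, so its value rests partly on background. Of 6 genes that fold, pack or sort granule proteins, Calr (-3.91) and Canx (-2.97), the chaperones of the endoplasmic reticulum that bind the myeloperoxidase precursor, fell to Mac1Gr1 together with Hspa5 (-1.68), and Lyst, the lysosomal trafficking regulator, rose (4.01). Srgn, the proteoglycan that holds the granule proteases, was at -0.28 (adjusted p = 0.0998).

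Among 11 factors of the granulocytic programme, 3 rose and 0 fell from PreGM to GMP, and 5 rose and 5 fell from GMP to Mac1Gr1, where 4.01% and 6.36% of all probes rose and fell at the first of these steps and 29.1% and 27.6% at the second. Gfi1, a repressor needed for neutrophil maturation, followed the peak of the primary granule genes, with a rise of 2.19 and a fall of 2.05 (adjusted p = 0.0164 and 0.00752). Cebpd (1.20, then 3.12) and Cebpb (1.05, then 2.15) rose at both steps. Myb (-2.80), Irf8 (-2.66), Cebpa (-1.64) and Runx1 (-1.08) fell to Mac1Gr1 while Klf5 (5.07), Lef1 (3.62) and Spi1, which encodes PU.1 (1.89), rose. Irf8 is also one of the monocyte markers used here, so it is counted in both lists.

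The genes whose pattern over the 21 arrays was most like the mean of the 7 genes, out of 14120 compared by Pearson correlation, were Myo7a (0.982), Prss57 (0.965), Nlrc4 (0.960), Fkbp1b (0.958), Aldh1b1 (0.943), Msantd3 (0.941), Chdh (0.940) and Slc36a4 (0.938). Myo7a, an unconventional myosin known from hair cells, had mean levels of -0.37 in KLS, 0.35 in PreGM, 1.27 in GMP, -0.80 in Mac1Gr1 and -3.0 in CFUe. Nlrc4, an inflammasome receptor, went from -2.83 in KLS to -0.46 in GMP and -2.99 in Mac1Gr1. These are arrays that share fractions, so the values describe likeness only.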

How the data were processed

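RNA of 21 samples was amplified with Cy3 and spike-in RNAs and hybridised to 1-colour arrays. The deposited scanner files hold background-corrected intensity per spot, made by the authors with Agilent Feature Extraction 10.7.1.1 (probe annotation mm9). The deposited series table holds log2 values normalized by the authors, with software not given in the sources used here, and served as an alternative; its rank correlation with the scanner values was 0.9998 to 1.0 per array.

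Levels are log2 intensity minus the 75th percentile of 43379 spots that were not controls. Outlier spots (80 to 283 per array) were left out and spots of a probe averaged. A probe was tested where some fraction had all 3 of its arrays well above background (29527 of 41174). Symbols came from RefSeq accessions of a GRCm38.p6 table (64.8% of probes). One limma 3.58.1 fit in R 4.3.3 (lmFit, eBayes, two-sided) held 7 fraction means, with Benjamini-Hochberg adjustment over all probes within each comparison; the procedure was tested on simulated data. A call took an adjusted p below 0.05 together with a 2-fold change. The number of arrays limits the precision. The 9 slides held up to 3 arrays each and were scanned on 1 day.

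The 7 genes and all lists were chosen with earlier results of these data known. Named from each other list were at most 6 genes, those with the largest called changes at the steps to GMP or Mac1Gr1 with any gene a result turns on, and the 8 genes most like the members. A listed gene named beyond that was chosen after its values were seen. A fraction with no array well above background gives a bound: the brighter mean against, per array, the higher of the dim signal and the lowest signal well above background. Alternatives were quantile and spike-in scaling (7 of 10 spike-in sequences), no filter on dim probes, blocks for slide or for replicate number, the deposited series table, normexp (offset 50, on median signals), no minimum fold, fits of only those fractions being compared, and each array left out in turn. Listed genes without a matched probe were not analysed here. Python 3.11.15, pandas 2.3.3 and matplotlib 3.10.9 were used.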

Additional observations from a re-analysis of the deposited data

Results flagged for a closer look

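The change at the step to GMP differed from that at the step to CFUe for all 7 genes, by the test of the difference itself (limma with Benjamini-Hochberg adjustment over all probes). The difference was 3.74 for Mpo, 8.81 for Elane, 5.27 for Prtn3, 5.01 for Ctsg, 8.30 for Ms4a3, 2.17 for Ctsc and 6.76 for Serpinb1a on the log2 scale, with adjusted p between 1.14e-07 (Elane) and 0.00432 (Mpo). The change from GMP to Mac1Gr1 also differed from that from CFUe to Ter119, by -8.41 for Mpo, -13.34 for Elane, -10.79 for Prtn3, -10.02 for Ctsg, -11.08 for Ms4a3, -3.31 for Ctsc and -7.20 for Serpinb1a, with adjusted p between 1.50e-10 (Prtn3) and 5.66e-07 (Mpo). All 14 values were called in every alternative run, and CFUe enters all of them; Elane was well above background on 1 of the 3 CFUe arrays.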

How the results depend on the processing

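Counts of called genes that moved by over 1.5 times were these. With quantile scaling, 6 genes were called between Ter119 and Mac1Gr1 (3 otherwise), where 41.6% of all probes were called. With spike-in scaling 5 were called in PreMegE vs KLS (3) and 4 in the difference of the first myeloid steps (1), where 15.3% and 67.3% of all probes were called. With the slide as a block 0 were called in PreMegE vs KLS, 3 in PreMegE vs PreGM (6) and 0 in that difference. The shares of all probes called there were 9.87%, 11.6% and 4.06%. The authors' series table gave 5 genes in PreMegE vs KLS and 5 in Ter119 vs Mac1Gr1, where 13.3% and 42.2% of all probes were called. The compared fractions alone gave 5, 6 and, for the difference, 3, where 12.6%, 42.8% and 7.54% of probes were called. Replicate numbers did not pair the arrays: over 63 same-numbered pairs the correlation of deviations ran from -0.43 to 0.369, with a median of 0.0024 (0.00762 for other pairs), and 10 of 21 arrays correlated best with their own number. The replicate block gave 5 genes in Ter119 vs Mac1Gr1, where 41.9% of all probes were called, and changed 2 of 91 calls in all.

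Leaving out arrays in turn gave these counts, with the share of all probes called in either direction in brackets. PreGM vs KLS gave 4 to 5 genes (7.32% to 9.63%) and GMP vs PreGM 4 (9.07% to 11.8%). Mac1Gr1 vs GMP gave 5 to 6 (54.7% to 59.0%) and GMP vs KLS 6 (20.3% to 23.8%). PreMegE vs KLS gave 2 to 3 (11.6% to 12.5%) and CFUe vs PreMegE 6 to 7 (23.3% to 26.2%). PreMegE vs PreGM gave 5 to 6 (10.8% to 13.2%) and Ter119 vs Mac1Gr1 3 (40.1% to 43.4%). All 7 were called in Ter119 vs CFUe (55.1% to 57.5%) and CFUe vs GMP (24.9% to 29.0%). The difference of the first steps gave 0 to 1 (4.53% to 9.33%). The lineage differences gave 7 each (18.8% to 21.9% and 38.6% to 40.8%). Signs turned for Mpo in GMP vs PreGM (quantile 0.16, spike-in 0.94, values of the series table, 0.17, and -0.15 to 0.027 with arrays left out, the latter without GMP array 1) and in PreMegE vs KLS (slide block 0.22), for Serpinb1a in PreGM vs KLS (quantile -0.027, spike-in -0.32) and Mac1Gr1 vs GMP (spike-in -1.35), for Ctsc in Ter119 vs Mac1Gr1 (spike-in -0.26), and, in the difference of the first steps, for Prtn3 (spike-in 1.22) and Ms4a3 (-0.027 without PreGM array 2 to 1.63 without PreGM array 3). Apart from spike-in Serpinb1a none of these was called. Spike-in scaling moved the median of all probes in Mac1Gr1 vs GMP from 0.17 to -1.86; the cause of the other moves was not tested. No gene had a second probe, so that alternative was not run.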

Other observations

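Of 16 related serine proteases and peroxidases, 7 could be tested, of which 4 rose and 0 fell from PreGM to GMP, where 4.01% of all probes rose and 6.36% fell. The summed level of the 16 was 3.85 to 3.9 in GMP and 4.36 to 4.75 in Ter119. Gzmb, which encodes granzyme B and lies in the same protease locus as Ctsg, rose by 3.93 (adjusted p = 2.09e-06), Epx, the eosinophil peroxidase, by 3.93 (1.73e-06), Cma1, a mast cell chymase, by 2.94 (3.12e-08) and Mcpt4 by 1.88 (0.00238). From GMP to Mac1Gr1, Gzmb was lower by at least 65.6-fold, since no Mac1Gr1 array was well above background for it, and Epx (-2.77) and Cma1 (-2.64) fell. Of the 7 eosinophil, mast cell and basophil markers, 2 rose from PreGM to GMP, Prg2 (8.91) and Epx.

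Of 11 other MS4A genes tested, 1 rose from PreGM to GMP (Ms4a6d, 1.63) and 2 fell, and 5 rose and 3 fell from GMP to Mac1Gr1, where 29.1% of all probes rose and 27.6% fell. Ms4a6c had mean levels of 0.35 in KLS, 3.05 in PreGM, 2.83 in GMP and 0.87 in Mac1Gr1. Of 10 other cathepsins tested, 2 rose from PreGM to GMP, Ctsh (1.42) and Ctsb (1.27), 2 fell, and 4 rose and 1 fell from GMP to Mac1Gr1, among them Ctss (2.41) and Ctsd (2.39), which rose, and Ctsz (-1.40), which fell.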
